A study of Mus musculus with 10 samples.

Results

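The genes coding for AP-1 subunits were examined for ZFP266 DamID-seq peaks in mouse embryonic fibroblasts (MEFs). The group held 10 genes of the 21883 protein-coding RefSeq genes on the chromosomes of GRCm38.p6: the Jun genes *Jun*, *Junb* and *Jund*, the Fos genes *Fos*, *Fosb*, *Fosl1* and *Fosl2*, and the related genes *Atf3*, *Batf* and *Batf3*. Genes entered by name, and a peak was taken where it overlapped the RefSeq gene or came within 50 kb of it. This gave 27 of the 15119 deposited peaks, of which 1 lay near both *Atf3* and *Batf3*, so that there were 28 pairs of peak and gene.

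Wild-type MEFs of the 129 strain were nucleofected in batches of 100000 cells with *PGK-mO-Dam* (Dam only, 5 samples) or *PGK-mO-Dam-Zfp266* (Dam-ZFP266, 5 samples). Per the labels, the PGK promoter drove mOrange as the first reading frame, and Dam or the fusion was made by translation reinitiation. Transfected cells were sorted 48 h after nucleofection, and libraries were made from 32 ng of genomic DNA per sample. The labels name mOrange as the marker of the sort, and the methods name GFP. The authors called 1 peak list from the 10 samples together, so neither a value per sample, a replicate error nor the sequencing depth could be given, and every value is a description without a test. The list holds no expression value, and the fibroblast identity of the cells could not be checked against markers.

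AP-1 factors are dimers of basic leucine zipper (bZIP) proteins. Fos proteins need a Jun partner to bind DNA, whereas Jun proteins can also pair with each other, and many of these genes are induced within minutes by growth factors or stress through MAP kinases. In fibroblasts AP-1 occupies many of the enhancers that keep the cells in their somatic state. ZFP266 is a KRAB zinc finger protein, and the study proposed that it sits on B1 SINEs, short mouse retrotransposons derived from the 7SL RNA, and that AP-1 factors bound nearby open such sites when ZFP266 is lost. The question addressed here is whether the genes for these factors themselves have ZFP266 peaks around them, and whether those peaks hold B1 SINEs or AP-1 motifs.

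In DamID-seq, the fused Dam enzyme leaves adenine methylation at GATC sites around the places that the protein binds, and fragments between methylated sites are amplified and sequenced. All 27 peaks started and ended at a GATC of GRCm38.p6, as did all 15119. A peak is therefore a run of whole DpnII fragments, and a B1 SINE or motif in it was not resolved more finely than the fragment. The signal value, which compares Dam-ZFP266 with Dam only, has no stated scale and was used to rank peaks within the list. As a check of the construct, 5 peaks lay in *Zfp266* itself, with signal values of 5.24 to 8.66, the highest of the list, and the study's methods attribute these to the plasmid. The highest signal value near an AP-1 gene was 1.78.

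The sequences below show what was searched for in the peaks. The B1 majority sequence was derived from copies in the reference genome, and B1 copies from peaks near *Jun* and *Fosl1* are shown because they were the most similar to it among the 12 found, with identities of 96.0% and 95.5%. Both lay on the minus strand, and each is written 5′ to 3′ along the element.
B1 majority sequence: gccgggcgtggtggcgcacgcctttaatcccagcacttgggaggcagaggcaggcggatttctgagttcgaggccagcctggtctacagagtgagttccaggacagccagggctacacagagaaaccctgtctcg
*Jun* peak, chr4:95032148-95032272, minus strand: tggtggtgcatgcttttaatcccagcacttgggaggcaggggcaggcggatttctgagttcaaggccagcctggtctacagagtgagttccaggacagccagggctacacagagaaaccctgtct
*Fosl1* peak, chr19:5489799-5489931, minus strand: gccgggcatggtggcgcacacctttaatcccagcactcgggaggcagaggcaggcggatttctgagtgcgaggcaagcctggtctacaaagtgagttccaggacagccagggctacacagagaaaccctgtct

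AP-1 binds the sequence TGACTCA, which reads TGAGTCA on the other strand. Both words were searched, and the 4 peaks around *Jun* held 7 of the 19 matches in all 27 peaks. They are shown on the plus strand of GRCm38.p6 with 11 bases on either side and the motif in capitals, because *Jun* had more of them than any other member.
*Jun* peak 43481 bp downstream, chr4:95004295-95004323: gtagcaagaaaTGAGTCAggtgggcctta
*Jun* peak 15595 bp downstream, chr4:95032309-95032337: ctgaccctcatTGACTCAattcttattcc
*Jun* peak 27587 bp upstream, chr4:95081842-95081870: ggaactcagggTGACTCAgcttcacatgt
*Jun* peak 27587 bp upstream, chr4:95084213-95084241: ttgttctacggTGACTCAgaagaaaccat
*Jun* peak 48647 bp upstream, chr4:95100898-95100926: ttttcaactgcTGACTCAtcttgtaaatc
*Jun* peak 48647 bp upstream, chr4:95101612-95101640: aatactctagaTGAGTCAtggccaatttg
*Jun* peak 48647 bp upstream, chr4:95102065-95102093: cacagtatttaTGACTCAgattttctcat

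Further stretches are shown for arrangements that occurred only once among the 27 peaks. A peak upstream of *Fosl1* held a pair of AP-1 core motifs 15 bases apart, and a peak upstream of *Fosb* held a motif 3 bases from the aligned part of a B1 SINE. In the *Fosb* stretch, written along the element, the alignment with the majority sequence starts at its base 22, so the motif stands on the side of the element's head. A peak near *Jund* held the CRE form TGACGTCA, the sequence preferred by ATF and CREB proteins.
*Fosl1* peak, chr19:5433541-5433569, plus strand: TGACTCActcccttgccccccaTGACTCA
*Fosb* peak, chr7:19317302-19317431, minus strand: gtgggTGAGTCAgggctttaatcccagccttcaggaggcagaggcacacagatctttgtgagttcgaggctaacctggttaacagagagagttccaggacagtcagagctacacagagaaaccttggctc
*Jund* peak, chr8:70744308-70744337, plus strand: cccgctccacgTGACGTCAtaaaatgtctg

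All 10 AP-1 genes had at least 1 peak in the gene or within 50 kb, beside 48.7% of all protein-coding genes. With only the peaks of q under 0.05 and signal value above 1, this held for 6 of the 10 genes, beside 21.6% of all protein-coding genes. Of the 15119 deposited peaks, 7934 had q under 0.05. *Jun*, *Fosb* and *Fosl2* had 4 peaks each, *Jund*, *Fosl1* and *Atf3* had 3, *Junb*, *Fos* and *Batf3* had 2, and *Batf* had 1. At least 2 peaks were found for 9 of the 10 genes, beside 26.9% of all protein-coding genes, and at least 3 for 6 of them, beside 15.1%. The median was 3 peaks for the AP-1 genes and 0 for all protein-coding genes. A peak within 50 kb can be nearer to another gene. By the midpoint of the peak, the nearest protein-coding gene start was that of an AP-1 gene for 16 of the 27 peaks. No peak around *Junb*, *Jund* or *Fosl1* was among these 16.

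**Figure D1:**
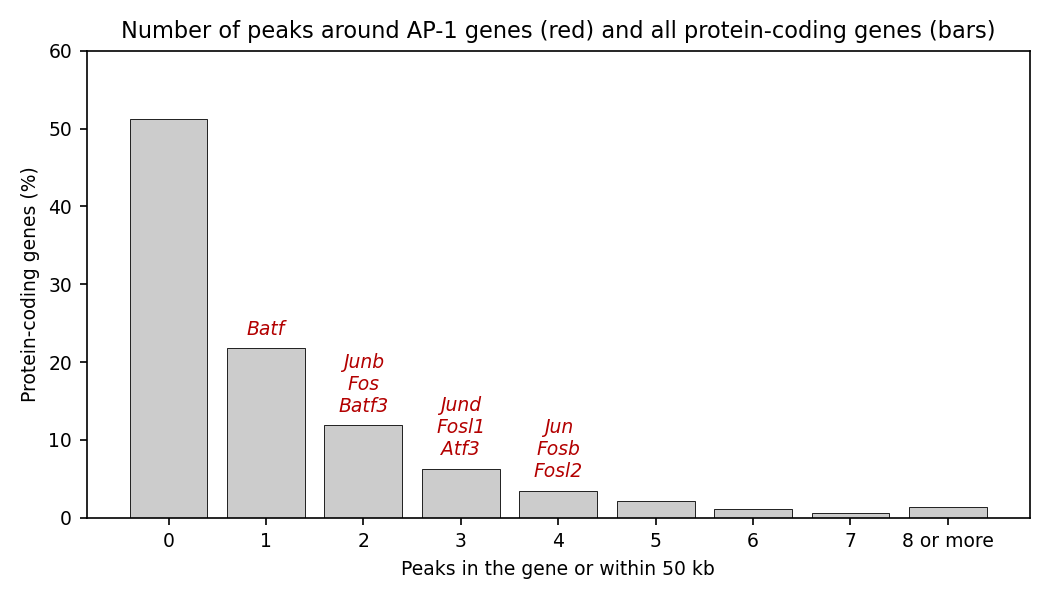
Bars give the share of the 21883 protein-coding genes (percent, vertical axis) with each number of peaks in the gene or within 50 kb (horizontal axis, the last bar holding 8 or more), and the AP-1 genes are written in red above the bar of their own number. No AP-1 gene stands above the bar at 0, which holds 51.3% of all genes, and *Jun*, *Fosb* and *Fosl2* stand above the bar at 4, which holds 3.50%.

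Most of these peaks lay away from the genes. A peak overlapped the gene itself for 3 of the 10 (*Fosb*, *Batf* and *Batf3*), beside 17.3% of all protein-coding genes. Within 10 kb a peak was found for 5 of the 10, with *Junb* and *Jund* added, beside 27.0% of all genes. Within 100 kb the share of all genes was 64.0%. The transcription start of no AP-1 gene lay in a peak, and over all protein-coding genes 1.52% did. Of the 28 pairs, 12 had the peak upstream of the gene, 13 downstream and 3 inside.

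AP-1 genes are short, with a median of 7832 bp (1840 bp for *Junb* to 22368 bp for *Batf*), where the median of all protein-coding genes was 17170 bp, and only *Fosl2* (21369 bp) and *Batf* were longer than that. Of the 12517 protein-coding genes no longer than *Batf*, 41.3% had a peak in the gene or within 50 kb. Peaks were also counted on a larger scale. From 1 Mb before to 1 Mb after each gene there were 5.96 (*Atf3*) to 17.8 (*Fosl2*) peaks per Mb, with a median of 10.2. The chromosomes as a whole, gene-poor parts included, had 5.55 peaks per Mb, close to the values for *Atf3* and *Batf3* (5.97). These counts include the peaks within 50 kb, and the same flanks of other protein-coding genes were not counted. The joined windows also had a higher GC content (48.5%) than the chromosomes (41.7%) and more B1 SINEs (307 per Mb beside 102 per Mb), and the part of these features in the counts of peaks was not tested.

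**Figure D2:**
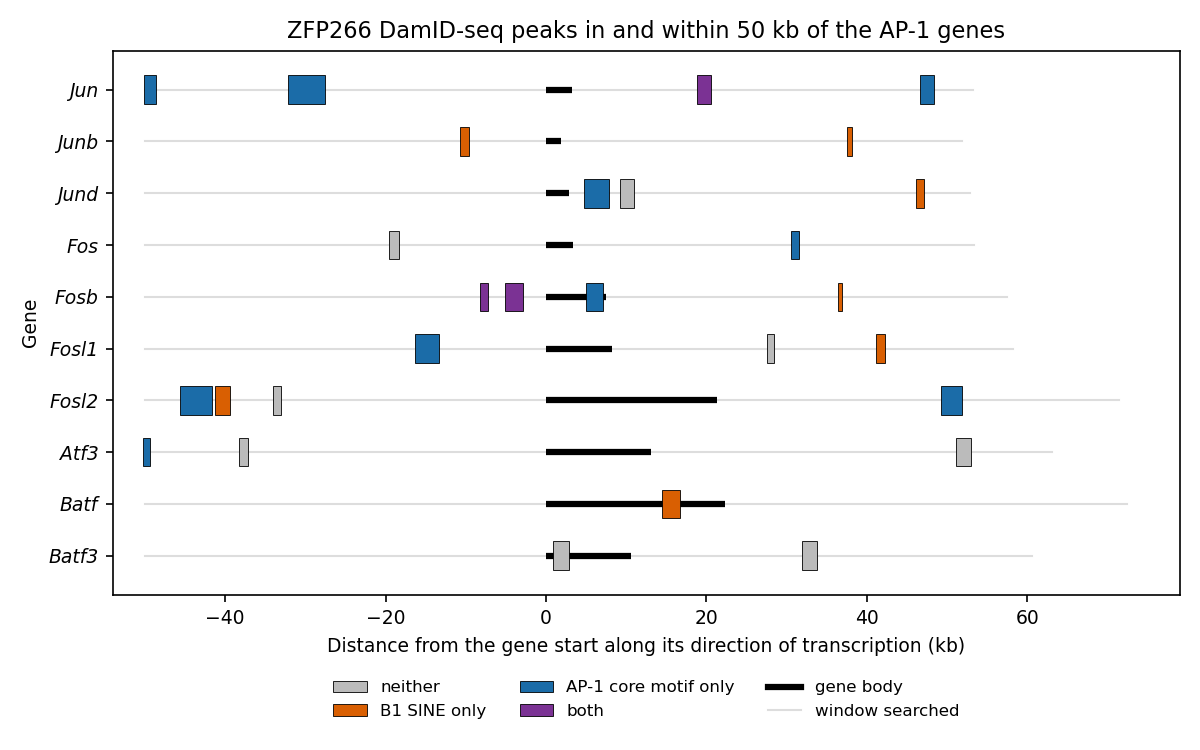
Each line is the window searched around an AP-1 gene, drawn by distance from the gene's start along its direction of transcription (kb), with the gene body in black and peaks as boxes colored by whether they hold a B1 SINE, an AP-1 core motif, both or neither. Boxes lie on black bars only for *Fosb*, *Batf* and *Batf3*, and the 3 boxes holding both elements are at *Jun* and *Fosb*.

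*Jun*, on the minus strand at chr4:95049036-95052222, codes for c-Jun, the main Jun protein of growing fibroblasts, and no other protein-coding gene lay in its window. The peak at chr4:95031679-95033440 (1762 bp), 15595 bp downstream, had a signal value of 1.17 (q = 0.0133) and held both a B1 SINE and an AP-1 core motif, 47 bases apart. The largest of all 27 peaks, chr4:95079810-95084422 (4613 bp, 5 DpnII fragments), lay 27587 bp upstream, with a signal value of 1.09 (q = 0.00121) and 2 motifs. These 2 peaks were the ones around *Jun* with both q under 0.05 and a signal value above 1. The peak 48647 bp upstream, chr4:95100870-95102328, had a signal value of 0.892 (q = 0.0311) and 3 motifs, the most in any of the 27 peaks. The peak 43481 bp downstream, chr4:95003805-95005554, had a signal value of 0.705 (q = 0.0617), 1 motif and no B1 SINE. Thus each of the 4 peaks around *Jun* held the AP-1 core motif, beside 44.2% of all peaks. Of the 24 such motifs in its window, 7 lay in peaks, which took up 9.19% of the window.

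Both upstream peaks of *Jun* fell in *Junos*, a long noncoding RNA gene on the opposite strand. The nearer lay in introns of its transcripts, with 0 exonic bases, and 963 bases of the farther were exonic in at least 1 transcript. The far downstream peak lay in an intron of the noncoding gene *Gm12694*. A further peak just beyond the limit, 51789 bp upstream of *Jun* at chr4:95104012-95105713, had a signal value of 1.83 (q = 0.00415), above that of every peak inside the limit around the 10 genes.

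*Junb*, whose protein often restrains c-Jun activity, lies on the minus strand at chr8:84976909-84978748 in a gene-dense region, with 8 other protein-coding genes in its window. Its 2 peaks held 3 B1 SINEs and no AP-1 core motif. The peak at chr8:84988321-84989458 (1138 bp), 9572 bp upstream, had a signal value of 0.844 (q = 0.0361) and 2 B1 SINEs of 89.7% and 75.2% identity. It overlapped 683 bp of *Hook2*, which codes for a microtubule adaptor, and held 1 transcript start of that gene, although none of its curated transcripts. The other, chr8:84940605-84941189, was the shortest of the 27 (585 bp) and lay 35719 bp downstream within the RefSeq span of the kinase gene *Mast1*, outside its curated transcript, with a signal value of 1.02 (q = 0.0834). Neither peak had both q under 0.05 and a signal value above 1.

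*Jund*, the Jun gene that is expressed most evenly across cell states, lies on the plus strand at chr8:70697739-70700616 and had all 3 peaks downstream. The peak at chr8:70706948-70708754 (1807 bp), 6331 bp from the gene, had the highest signal value and the lowest q of the 27 peaks, 1.78 and 5.69e-05, and ranked at percentile 99.4 of all peaks by signal value. It held neither a B1 SINE nor an AP-1 core motif. At chr8:70702492-70705608 (3117 bp), only 1875 bp from the gene, a second peak had a signal value of 1.07 (q = 0.00385) and 1 motif.

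Both of these peaks also fell in the neighboring gene *Iqcn*. The nearer one overlapped the first exon of *Iqcn*, noncoding there in the curated transcripts, and held the start of a predicted transcript, and the one with the highest signal value touched its exons 2 and 3, with 604 coding bases, as well as the noncoding gene *Gm34255*. By the midpoint of either peak the nearest protein-coding gene start was that of *Iqcn* (2729 and 6530 bp away), not of *Jund*. The last peak, chr8:70743836-70744904, lay 43219 bp downstream in intron 3 of *Pde4c*, a cAMP phosphodiesterase gene, with a signal value of 0.797 (q = 0.0425), a B1 SINE of 94.8% identity and the CRE shown above. That was the only CRE in the 27 peaks, and 1.60% of all peaks held one.

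*Fos*, the classic immediate early gene, lies on the plus strand at chr12:85473890-85477274 with no other protein-coding gene in its window. It had 1 peak on either side and no B1 SINE in them. The upstream peak, chr12:85454285-85455605 (1321 bp), lay 18284 bp from the gene in the noncoding gene *Gm38543*, with a signal value of 0.808 (q = 0.0110), and held neither element. The downstream peak, chr12:85504463-85505387 (925 bp), lay 27188 bp away with a signal value of 0.913 (q = 0.0761) and 1 AP-1 core motif.

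*Fosb*, which codes for another inducible Fos protein, lies on the minus strand at chr7:19302696-19310118 and had 3 of its 4 peaks in the gene or within 10 kb, the most of the 10 genes. The peak inside it, chr7:19303023-19305187 (2165 bp), lay towards the 3′ end of the gene, with 1981 or 1818 bases of untranslated region in its 2 curated transcripts. That peak had a signal value of 0.751 (q = 0.0788) and 1 AP-1 core motif. The peak 2868 bp upstream, chr7:19312987-19315206, had a signal value of 1.19 (q = 0.0102), 2 motifs and a B1 SINE of 84.3% identity, of whose 126 bases 75 lay in the peak. It was the only peak around *Fosb* with both q under 0.05 and a signal value above 1.

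The second upstream peak of *Fosb*, chr7:19317380-19318392, lay 7261 bp away with a signal value of 0.893 (q = 0.0530), and it held the motif and B1 SINE shown above. Only 37 bases of that 115 bp element lay in the peak. The remaining peak, chr7:19273175-19273771 (597 bp), lay 28924 bp downstream with a signal value of 0.974 (q = 0.0466). Its bases were marked as repeats over 85.8% of its length, the highest share of the 27, and a B1 SINE of 91.9% identity stood at its center. Each of the 4 peaks around *Fosb* thus held a B1 SINE, an AP-1 core motif or both, where 37.4% of all peaks held neither.

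*Fosl1* and *Fosl2* code for FRA-1 and FRA-2, which are Fos proteins without the strong activation domain of c-Fos. *Fosl1* lies on the plus strand at chr19:5447698-5455938 among 11 other protein-coding genes, the most in any of the windows. Upstream, 13333 bp away, the peak at chr19:5431371-5434364 (2994 bp) had a signal value of 0.837 (q = 0.0179) and the pair of motifs shown above. Downstream, the peak at 19297 bp, chr19:5475236-5476174, lay in *Efemp2*, which codes for an extracellular matrix protein of elastic fibers, and had a signal value of 0.958 (q = 0.0531) and neither element. The peak at 32901 bp, chr19:5488840-5489987, had a signal value of 0.901 (q = 0.0525) and the B1 SINE shown above. None of the 3 was closer to the start of *Fosl1* than to that of another protein-coding gene. A peak 50712 bp upstream, just beyond the limit, had a signal value of 1.25 (q = 0.0423).

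*Fosl2* lies on the plus strand at chr5:32136472-32157840 with no other protein-coding gene in its window and had 3 peaks upstream and 1 downstream, none nearer than 27927 bp. The farthest upstream, chr5:32090893-32094765 (3873 bp), lay 41706 bp away with a signal value of 1.11 (q = 0.0210) and 2 AP-1 core motifs. Next to it, chr5:32095259-32097075 held 2 B1 SINEs of 93.2% and 92.2% identity on opposite strands and had the lowest signal value of the 27 peaks, 0.540 (q = 0.0777). These 2 peaks were separated by 493 bases, and both fell in the noncoding gene *Gm40277*, the first also holding the miRNA gene *Gm51292*. The peak 33062 bp upstream, chr5:32102367-32103409, had a signal value of 0.912 (q = 0.0664) and neither element. The downstream peak, 27927 bp away at chr5:32185768-32188386, overlapped the pseudogene *Gm9555*, with a signal value of 0.646 (q = 0.0866) and 1 motif. The first of the upstream peaks alone had both q under 0.05 and a signal value above 1.

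*Atf3*, a stress-induced factor of the ATF family, and *Batf3*, which pairs with Jun proteins in immune cells, are neighbors on chromosome 1. *Atf3* lies on the minus strand at chr1:191170296-191183333 and *Batf3* on the plus strand at chr1:191098414-191108943, so that their windows overlap. The peak between them, chr1:191130316-191132210, had a signal value of 1.39 (q = 0.00576) and lay 38085 bp downstream of *Atf3* and 21372 bp downstream of *Batf3*, in the noncoding gene *Gm31640*. The peak inside *Batf3*, chr1:191099269-191101309 (2041 bp), covered its exon 2 with 105 coding bases and parts of introns 1 and 2, and had a signal value of 1.15 (q = 0.00763). Upstream of *Atf3*, the peak at 37106 bp, chr1:191220440-191221567, had a signal value of 1.05 (q = 0.0373). All of these 3 peaks had q under 0.05 and a signal value above 1, and none held a B1 SINE or an AP-1 core motif. The last peak of *Atf3*, chr1:191232727-191233629, was the farthest within the limit (49393 bp) and had the highest q of the 27 (0.0899), with a signal value of 0.780 and 1 motif.

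*Batf*, which codes for a partner of Jun proteins in lymphocytes, lies on the plus strand at chr12:85686720-85709087 and had a single peak, chr12:85701206-85703381 (2176 bp), within its intron 2. The peak had a signal value of 0.922 (q = 0.0853) and held a B1 SINE of 93.7% identity and no AP-1 core motif. *Batf* lay on the same chromosome as *Fos*, but no peak was shared between them.

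**Figure D3:**
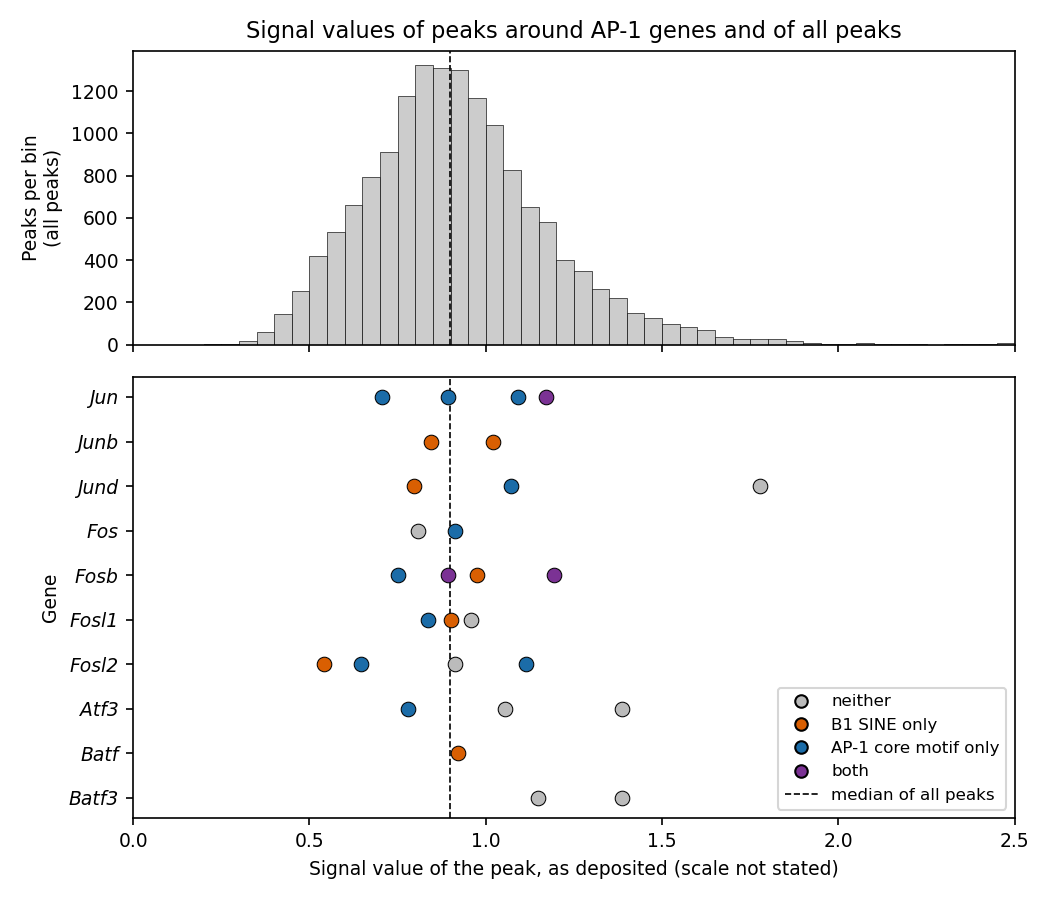
The upper panel counts all 15119 peaks by signal value as deposited (bins of 0.05, the last also holding higher values), and the lower panel shows each peak around each AP-1 gene as a point colored by the elements it holds, with the median of all peaks (0.898) as a dashed line. The points lie on both sides of that line for 8 of the 10 genes, and the point farthest right, at 1.78, is the peak 6331 bp downstream of *Jund*; the peak shared by *Atf3* and *Batf3* is drawn for both.

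The median signal value of the 27 peaks was 0.913 (0.540 to 1.78), close to the 0.898 of all peaks. Signal values above the median of all peaks were found for 16 of the 27. Both q under 0.05 and a signal value above 1 were found for 9 of the 27 peaks (33.3%, Wilson 95% interval 18.6 to 52.2%), beside 26.4% of all peaks. These 9 peaks lay around 6 of the genes, *Jun*, *Jund*, *Fosb*, *Fosl2*, *Atf3* and *Batf3*, and none lay around *Junb*, *Fos*, *Fosl1* or *Batf*. The median length was 1750 bp, beside 1777 bp, and 16 of the 27 peaks (59.3%) were a single DpnII fragment, beside 55.7%. Median GC content was 49.5% in the 27 peaks and 43.5% in all peaks, in windows that were themselves GC-rich.

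AP-1 core motifs and B1 SINEs were each found in a part of the peaks. An AP-1 core motif lay in 13 of the 27 peaks (48.1%, Wilson 95% interval 30.7 to 66.0%), beside 44.2% of all peaks. A B1 SINE lay in 10 of the 27 (37.0%, 21.5 to 55.8%), beside 32.7% of all peaks. Both were found in 3 (11.1%, 3.85 to 28.1%), beside 14.3%, and neither in 7 (25.9%, 13.2 to 44.7%), beside 37.4%. Each of these shares of all peaks lay within the interval for the AP-1 gene peaks, which covers counting error only and treats peaks as independent, although several lie around the same gene.

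The genes differed in which element their peaks held. AP-1 core motifs were found in peaks of 7 genes (*Jun*, *Jund*, *Fos*, *Fosb*, *Fosl1*, *Fosl2* and *Atf3*) and B1 SINEs in peaks of 7 (*Jun*, *Junb*, *Jund*, *Fosb*, *Fosl1*, *Fosl2* and *Batf*). A peak with both was found only around *Jun* and *Fosb*. Of the 19 motifs, 13 read TGACTCA and 6 TGAGTCA on the plus strand, and none of the 19 lay in bases marked as repeats, where 13.5% of the motifs in all peaks did. Peaks with a motif were longer (median 2165 bp) than those without (1143 bp), as in all peaks (2132 and 1545 bp).

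Motif density was compared inside and outside the peaks of the joined windows. The 9 joined windows held 237 AP-1 core motifs, of which 18 lay in peaks, a density of 0.377 per kb in peaks and 0.217 per kb outside them. The peaks of *Jun* and *Fosb* held 11 of these 18. Without their windows, a choice made after seeing the data, 7 motifs lay in peaks, and the density was 0.217 per kb in peaks and 0.218 per kb outside. *Jun* and *Fosb* had the most motifs in peaks (7 and 4), so a lower density in peaks was fixed by leaving them out. The peaks of *Junb*, *Batf* and *Batf3* held none, and the motif of the farthest *Atf3* peak lay beyond the edge of the window. In all 15119 peaks of the list the density was 0.328 per kb, and over the chromosomes 0.164 per kb. Of the 324 B1 SINEs, 12 (3.70%) touched a peak, and peaks took up 4.52% of the windows. B1 SINEs made up 2.80% of the peak bases and 3.69% of the other bases. Over the whole list, 7070 B1 SINEs were counted in peaks, of 277219 on the chromosomes, and peaks took up 1.15% of the chromosomes. The share of bases in B1 SINEs was not computed for all peaks or for the chromosomes. For the whole peak list, the study reported B1 as the SINE subfamily with the most significant enrichment. Gene by gene, the share of B1 SINEs that touched a peak was above the share of the window in peaks for 5 of the 10 genes. With 0 to 3 such elements per gene, and 1 shared base counted as touching, this split cannot show whether the pooled difference held. The windows of *Junb*, *Batf*, *Fosb* and *Fosl1* had the most B1 SINEs (60, 53, 52 and 52) and those of *Jun*, *Atf3* and *Fosl2* the fewest (5, 9 and 10).

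In the 3 peaks with both elements, the shortest distance between them was 3, 47 and 716 bases. The median over the 2166 such peaks of the whole list was 425 bases, and 8.36% of those had a distance under 50 bases. No AP-1 core motif of the 27 peaks lay inside the aligned part of a B1 SINE. For the *Fosb* pair 3 bases apart, the alignment starts at base 22 of the majority sequence, so the motif can lie in the unaligned head. The 12 B1 SINEs had a median identity of 92.5% to the majority sequence (75.2 to 96.0%), beside 87.9% for the 277219 found on the chromosomes. The median for B1 SINEs in all peaks was not computed. Of the 12, 5 lay on the plus and 7 on the minus strand.

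**Figure D4:**
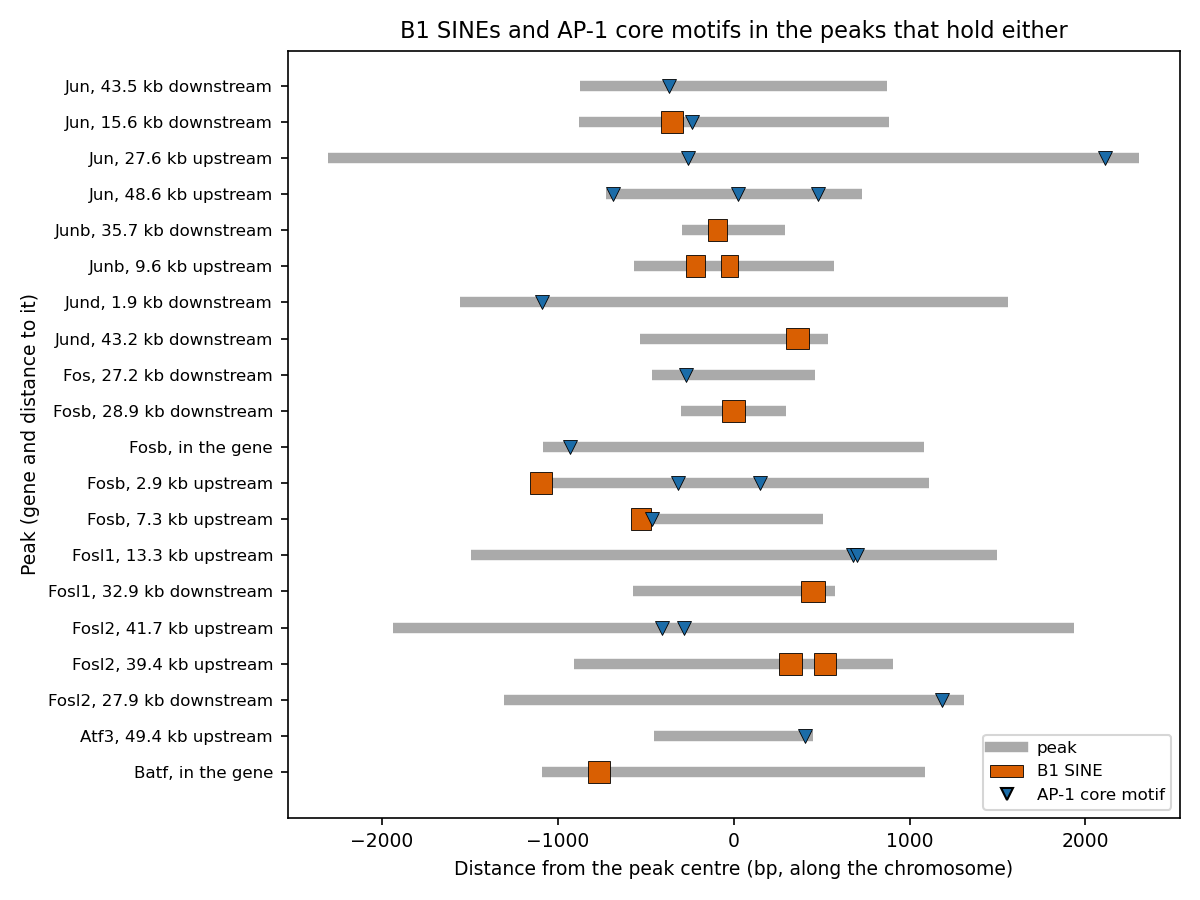
The 20 peaks that hold a B1 SINE or an AP-1 core motif are drawn to scale by distance from the peak's center (bp, along the chromosome), with peaks as gray bars, B1 SINEs as orange boxes and motifs as blue triangles. Elements stand at all positions along the peaks, 2 B1 SINEs near *Fosb* reach past the left edge of their peak, and the pair of motifs near *Fosl1* overlaps at this scale.

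Genes that work with AP-1 were examined in the same way. Of 22 genes for other bZIP proteins, 14 (63.6%) had a peak in the gene or within 50 kb. *Bach2* (9 peaks), *Nfe2l2* (8) and *Atf1* (7) had the most. They code for a transcriptional repressor active in B cells, the NRF2 regulator of the oxidative stress response and a CREB-like activator. *Bach2* spans 347697 bp, and all 9 of its peaks lay in the gene. Of 23 kinases and regulators upstream of AP-1, 16 (69.6%) had a peak within the same limit. Among them were *Map3k5* and *Elk3* (3 peaks each), which code for a stress-activated kinase and a partner of the serum response factor. Of 20 genes known as AP-1 targets, 16 (80%) had such a peak. Among them were *Cdkn1a* (9 peaks) and *Plaur* (6), which code for the cell cycle inhibitor p21 and the urokinase receptor.

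Set beside one another, the 3 lists and the AP-1 genes had higher shares than the 48.7% of all protein-coding genes at 50 kb. The lists differed in gene length, with medians of 11788 bp (other bZIP genes), 59979 bp (kinases and regulators) and 10028 bp (targets) beside 7832 bp (AP-1 genes). The AP-1 genes had the largest share with a peak within 50 kb, but for peaks in the gene itself the shares of other bZIP genes (45.5%) and of kinases and regulators (43.5%) were above the 30% of the AP-1 genes and of the targets. Within 10 kb the shares were 50%, 50%, 47.8% and 50% for the AP-1 genes, other bZIP genes, kinases and regulators, and targets. The differences between the lists were not tested.

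**Figure D5:**
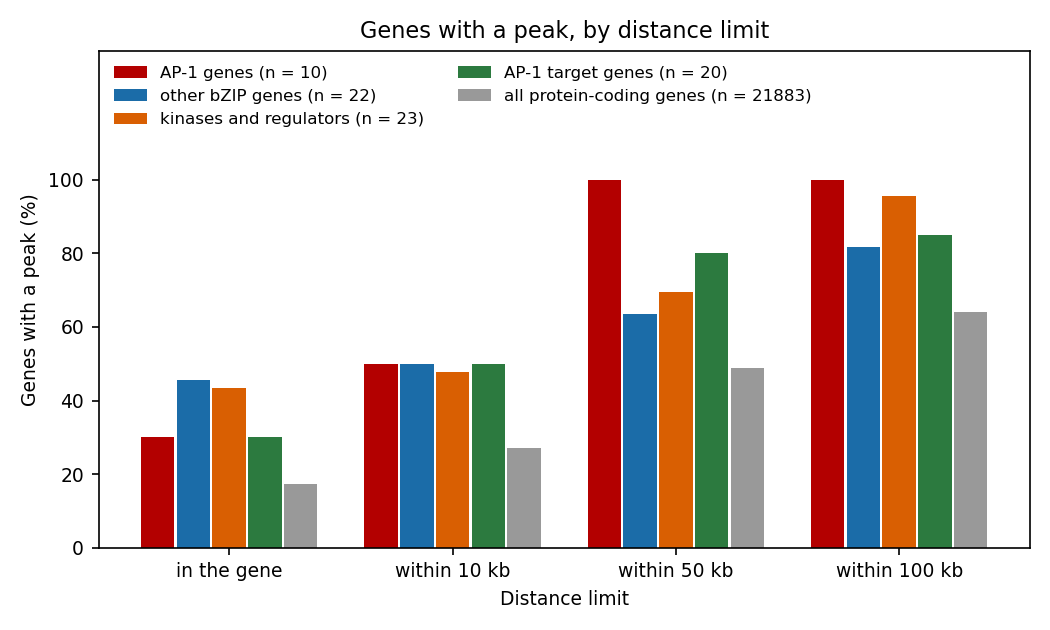
Bars give the share of genes with a peak (percent) in the gene itself and within 10, 50 and 100 kb of it, for the AP-1 genes, the 3 other lists and all protein-coding genes. The gray bars of all protein-coding genes are the lowest at every distance, and the red bars of the AP-1 genes reach 100% at 50 kb.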

How the data were processed

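The deposited file is 1 list of broad peaks called by the authors on 5 Dam-ZFP266 and 5 Dam only samples together. Per the labels and methods, reads were checked with FastQC, trimmed with cutadapt, aligned to GRCm38.p6 with BWA, cleared of mitochondrial and blacklisted reads, and counted per DpnII fragment with Rsubread before peaks were called with Daim. The deposited score rose with the −log10 q-value of the authors up to a limit of 1000. The deposited signal value is likewise used as a score of unstated scale. Read depth is unknown, and its effect on which fragments could pass as peaks, as that of fragment length, cannot be told from the list. Every peak of the list has q under 0.1, which is looser than the FDR under 0.05 and log2 fold change above 1 that the methods give as an example of a threshold.

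Gene spans were RefSeq genes of GRCm38.p6, and distance is the number of bases between peak and gene. B1 SINEs were hits of at least 80 bp at 70% identity (blastn 2.17.0) to a 135 bp majority sequence, built from 2192 copies on chromosome 19 that share a frequent 20-base word. A shared base counted as overlap. Motifs were exact matches on both strands, and repeats were the lower-case bases of the assembly. On 100 planted copies at each level of random substitutions, 100 were found at 15%, 96 at 20% and 82 at 25%. Python 3.11.15, pandas 2.3.3, numpy 2.4.6, scipy 1.17.1, pysam 0.24.0 and matplotlib 3.10.9 were used. The members and lists were chosen with earlier results of these data known. Named genes are the members, every gene overlapped by one of their peaks, the 3 genes with most peaks in each list (ties by distance), and *Zfp266*, and some genes that this rule names are not reported here. Alternatives changed the distance limit, its reference point, the annotation, the peak subset, the overlap and the definitions of B1 SINE and motif.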

Additional observations from a re-analysis of the deposited data

How the results depend on the processing

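No paired analysis was possible because the list pools the samples, and for the same reason no replicate could be left out. Of 36 alternatives to the counts and shares, 20 stayed near the reported value and 16 moved it. For counts, near meant within a fixed ratio of the reported value, and for shares inside its Wilson 95% interval. That interval is narrow for all protein-coding genes and wide for the 27 peaks, so the 20 and 16 depend on group size. All 10 AP-1 genes kept a peak with distances from transcript starts, with the peaks above the median signal value, and with curated RefSeq or GENCODE vM21 transcripts. They also kept one with at least 50% of the peak in the window. With a limit of 100 kb all 10 genes kept a peak by construction, since that limit contains the 50 kb one, although it counts among the 20. Their number fell to 3 in the gene body and 5 within 10 kb, and to 6 with peaks of q under 0.05 and signal value above 1. The 27 peaks became 3, 8 and 43 with limits of 0, 10 and 100 kb, 9 in that stricter subset and 16 above the median signal value. The share of all protein-coding genes, 48.7%, became 17.3%, 27.0% and 64.0% with these limits, 43.3% from transcript starts, 21.6% in the stricter subset, 33.8% above the median signal value and 49.7% with curated transcripts. The share of the 65 genes of the 3 other lists fell from 70.8% to 49.2% within 10 kb. Smaller limits and subsets give fewer peaks by construction. The shares of peaks with a B1 SINE (22.2 to 33.3%) and with an AP-1 core motif (33.3 to 59.3%) stayed within the counting intervals of the reported values in all alternatives. The small number of peaks limits what these shares can show.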
